A study of Mus musculus with 6 samples.

Results

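Accessible chromatin was described at 7 mucin and mucin-like genes in 6 ATAC-seq libraries of mouse colon cancer organoids. The peaks were chosen by position, and every deposited peak that overlapped 1 of 3 windows of the mm9 genome was taken. These were 290 kb of chromosome 7 with Muc6, Muc2, Muc5ac and Muc5b, 100 kb of chromosome 16 with Muc4, and another 170 kb of chromosome 16 with Heg1 and Muc13. This gave 25 of 43020 peaks, 8 in the Muc6 to Muc5b window, 6 in the Muc4 window and 11 in the Heg1 and Muc13 window. A row exists only where a peak was found in these libraries, so the presence of accessible chromatin is not itself a result. The windows were also picked when a run of peaks with lower counts in tumour-derived lines was already known in the window of Heg1 and Muc13. Those differences between the groups are part of what selected it, so the differences in that window are a description and are given without p-values. The other windows were also chosen with earlier results of these data known. Their fold changes and adjusted p-values likewise only describe these libraries.

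All 6 libraries came from organoids labelled with the genotype AKP. Naive libraries (n = 3) were made from AKP organoids with no recipient mouse. Primary tumour libraries (n = 3) were made from organoids regrown from tumours, which naive AKP organoids had formed after transfer by colonoscopy into the colon of immunocompetent C57Bl6 mice, and which were kept in culture until no other cell type remained. The labels do not say whether the 3 naive libraries are separate cultures or whether the 3 lines come from separate mice, so p-values measure the spread between these samples, which may be technical. Growth in the mouse, outgrowth and passage in culture are shared by all 3 lines and cannot be told apart.

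Mucins are long, heavily O-glycosylated proteins of epithelial surfaces. Muc2, Muc5ac, Muc5b and Muc6 encode gel-forming mucins that are secreted, and Muc2 is the main component of the mucus layer of the colon, made by goblet cells. Muc5ac and Muc6 are typical of the stomach and Muc5b of airway and salivary glands. Muc4 and Muc13 encode mucins anchored in the cell membrane, and Muc13 is abundant in the intestine. Heg1 encodes a mucin-like membrane receptor with a heavily glycosylated outer part, best known from blood vessels and the heart. Among protein-coding genes in the RefSeq order Muc6, Muc2, Muc5ac and Muc5b follow one another and are flanked by Ap2a2 and Tollip, Muc4 lies between Tnk2 and Muc20, and Heg1 and Muc13 are direct neighbours between Slc12a8 and Itgb5. The annotation used here is of another genome build than the peaks, so peaks were not placed in exons, introns or promoters and are numbered along each window instead. A peak near the edge of a window may lie closer to a flanking gene.

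RefSeq promoter entries (GRCm38.p6) were found for 5 of the 7 genes. The bases just before the first annotated base are shown for 4 of them. These are Heg1 and Muc13, which share a window, and Muc4 and Muc2 from the other windows. Capitals mark matches on either strand to any of 8 short motifs, namely ACAAT for SOX factors, CTTTG for TCF/LEF, TTTATG for CDX, CAAAGTCCA for HNF4A (which contains a TCF/LEF match), AGATAA for the GATA family, TGTTTAC for FOX, CCACACCC for KLF and TGANTCA for AP-1. All 4 are on the forward strand, and their GRCm38.p6 positions cannot be set against the mm9 positions of the peaks.
Heg1, chr16:33684216-33684383: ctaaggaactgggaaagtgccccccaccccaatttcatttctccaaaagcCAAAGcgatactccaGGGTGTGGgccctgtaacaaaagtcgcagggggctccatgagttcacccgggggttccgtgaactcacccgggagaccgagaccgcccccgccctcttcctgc
Muc13, chr16:33793787-33794036: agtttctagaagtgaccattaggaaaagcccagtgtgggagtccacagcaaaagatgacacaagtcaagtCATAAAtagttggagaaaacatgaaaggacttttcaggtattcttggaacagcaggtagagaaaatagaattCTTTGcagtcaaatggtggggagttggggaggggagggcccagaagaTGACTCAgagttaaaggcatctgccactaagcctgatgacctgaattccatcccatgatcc
Muc4, chr16:32735636-32735885: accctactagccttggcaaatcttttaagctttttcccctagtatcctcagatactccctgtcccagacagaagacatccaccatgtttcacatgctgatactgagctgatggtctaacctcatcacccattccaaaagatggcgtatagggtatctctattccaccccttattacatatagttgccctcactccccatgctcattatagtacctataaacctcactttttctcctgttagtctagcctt
Muc2, chr7:141690090-141690339: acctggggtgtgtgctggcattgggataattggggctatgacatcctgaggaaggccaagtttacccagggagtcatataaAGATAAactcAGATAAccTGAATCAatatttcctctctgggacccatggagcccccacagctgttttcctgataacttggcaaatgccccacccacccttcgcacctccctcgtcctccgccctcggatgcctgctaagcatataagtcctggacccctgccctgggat

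The Muc2 stretch held 2 GATA matches and 1 AP-1 match. Of 32851 promoter entries cut to the same 250 bases, 9.99% held a GATA match and 6.75% an AP-1 match. The Muc13 stretch held 1 CDX, 1 TCF/LEF and 1 AP-1 match, motifs present in 10.8%, 48.6% and 6.75% of the entries. The Heg1 stretch was shorter, 168 bases, since it was cut at the first annotated base of the gene, and held 1 TCF/LEF and 1 KLF match, present in 37.5% and 1.84% of entries cut to 168 bases. The Muc4 stretch held none of the 8. No SOX match lay in any of the 4 stretches, against 27.7% of all entries over 250 bases and 20.4% over 168 bases. A match is a string of letters and not a binding site.

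Peak totals ran from 1185356 to 5987545 reads per library, with naive replicate 1 the shallowest and naive replicate 2 the deepest, and the 25 peaks took between 753 and 3810 reads of a library. Values below are normalized counts, that is counts relative to the library's total in tested peaks after TMM scaling, in the unit CPM, and 1 read was worth 0.184 CPM in the deepest library and 0.858 CPM in the shallowest. In bulk libraries fewer cells with an open region and a less open region in each cell cannot be told apart. Of the 25 peaks, 24 passed the filter on low counts, and the weakest, in the Muc4 window, did not. A peak was called where edgeR's quasi-likelihood test over all 36179 tested peaks gave an adjusted p under 0.05, which 8.00% of all tested peaks did as higher and 6.40% as lower in the primary tumour lines. Among the 24 tested peaks of the mucin windows 1 was called higher and 8 lower, and 15 were not called. Of the 8 called lower, 7 lay in the Heg1 and Muc13 window, which was picked with its differences known, and 1 in the Muc4 window.

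In the Heg1 and Muc13 window the peaks called lower in the tumour lines spanned a stretch of 55.5 kb, from 33738882 to 33794349 on chromosome 16. The first and last of these peaks set the ends of the stretch. Of 11 tested peaks in the window, 7 were called lower and none higher, where 6.40% of all tested peaks were called lower. At the same 7 peaks every line lay below every naive library, an order found at 15.3% of all tested peaks. These counts are part of what chose the window and nothing is read from them. The 7 peaks were between 1.95-fold and 3.65-fold lower, and 1 more peak within the stretch was not called. Each fold change below is the fitted log2 difference of primary tumour lines minus naive organoids with its standard error (SE).

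Peak 1, at chr16:33738882-33740074, was the strongest of the 25 and lay at percentile 96.9 of all peaks in mean CPM. It held 108, 158 and 133 CPM in naive replicates 1, 2 and 3, and 63.0, 67.2 and 77.3 CPM in primary tumour replicates 1, 2 and 3. The groups did not overlap, and the 3 tumour lines were close to one another, with 69.2 ± 7.34 against 133 ± 25.0 CPM in naive organoids (SD, n = 3 each). Its log2 fold change of -0.96 (SE 0.20) was the smallest in size of the 7. Peak 5, at chr16:33776038-33778047, the widest of the 25 with 2009 bp, held 88.4, 93.3 and 118 CPM in naive organoids and 39.1, 19.6 and 45.1 CPM in the lines (log2 fold change -1.52, SE 0.25). Here the lines were spread more widely, with primary tumour replicate 2 the lowest. Peaks 1 and 5 were the strongest of the window in naive organoids, and both kept a clear signal in every line.

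Peak 3, at chr16:33753017-33753574, fell by 1.87 on the log2 scale (SE 0.36), the largest fall of the 25. Its naive values were 24.9, 30.1 and 38.0 CPM and its values in the lines 8.27, 6.35 and 10.9 CPM. Every line lay far below the lowest naive value. Its close neighbour peak 2, at chr16:33751200-33752108 and only 0.909 kb away, went from 50.6, 68.2 and 39.3 CPM to 23.7, 20.1 and 27.5 CPM (log2 fold change -1.16, SE 0.27). As ratios of the group means, the lines held 27.4% of the naive signal at peak 3 and 45.1% at peak 2, and the difference between the 2 peaks was not tested.

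Peak 6, at chr16:33782052-33782808, held 51.5, 45.7 and 63.6 CPM in naive organoids and 17.4, 9.53 and 20.4 CPM in the lines (log2 fold change -1.74, SE 0.29). Peak 8, at chr16:33792757-33794349, held 36.0, 29.8 and 47.4 CPM in naive organoids and 5.70, 10.1 and 18.0 CPM in the lines (log2 fold change -1.77, SE 0.37). By the range of log2(CPM + 1) it differed most between the lines among the peaks of this window. Its highest line still lay below its lowest naive library. Peak 8 was also broad, with a width at percentile 89.8, a mean CPM at percentile 70.4 and an authors' score at percentile 13.9 of all peaks. Peak 4, at chr16:33764590-33765066, held 17.2, 21.7 and 22.2 CPM in naive organoids and 4.56, 5.29 and 11.9 CPM in the lines (log2 fold change -1.53, SE 0.43). Its call was lost without naive replicate 2, naive replicate 3 or primary tumour replicate 2, with log2 fold changes of -1.48, -1.47 and -1.38. That of peak 2 was lost without naive replicate 2, with a log2 fold change of -0.90.

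The peak left uncalled inside the stretch was peak 7, at chr16:33785303-33785727, with 12.9, 17.5 and 12.4 CPM in naive organoids and 4.56, 12.7 and 7.59 CPM in the lines. Primary tumour replicate 2 lay within the naive range there, so the groups overlapped (log2 fold change -0.84, SE 0.45). The same line had the deepest loss at the neighbouring peaks 5 and 6. Against the naive mean it kept 19.6% of the signal at peak 5 and 17.8% at peak 6, but 89.2% at peak 7. Primary tumour replicate 1 kept 39.1%, 32.4% and 32.1% at these 3 peaks. The value of replicate 2 at peak 7 rests on 24 reads.

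**Figure D1:**
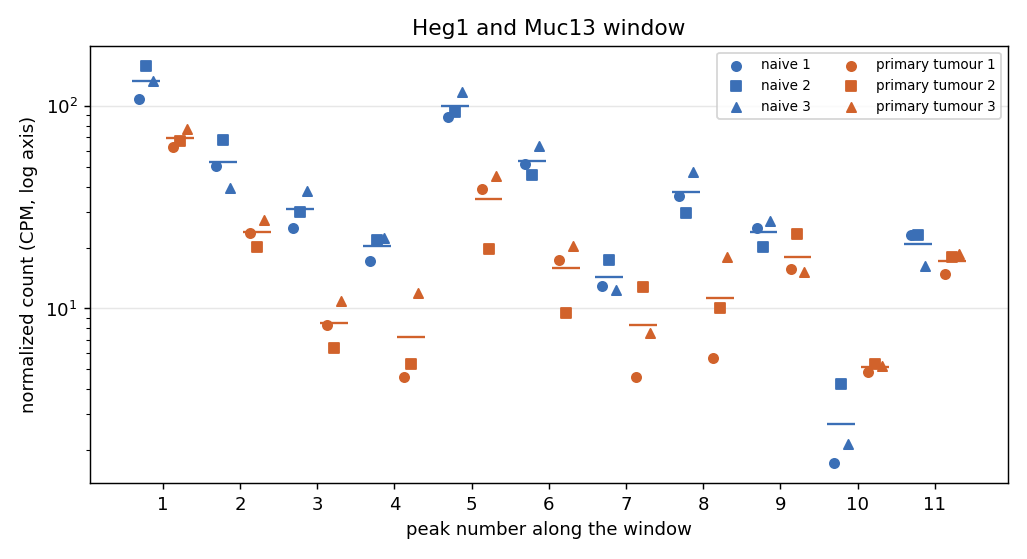
Normalized count (CPM, log axis) of the 11 peaks of the Heg1 and Muc13 window in each library, numbered along the chromosome. Points are libraries and short lines are group means of 3 libraries. At peaks 1 to 6 and 8 every primary tumour line lies below every naive library, and at peaks 7, 9 and 11 the groups overlap. At peak 10, which is weak, every line lies above every naive library.

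Towards the far side of the window, peaks 9, 10 and 11, from 33829385 onwards and 35.0 kb beyond peak 8, were not called. Whether they differ from the peaks of the stretch was not tested. Peak 9, at chr16:33829385-33830797, held 24.9, 20.03 and 26.9 CPM in naive organoids and 15.7, 23.3 and 15.2 CPM in the lines. Peak 11, at chr16:33836773-33837631, held 23.2, 23.0 and 16.2 CPM against 14.8, 18.0 and 18.5 CPM. Both sets of values overlapped between the groups (log2 fold changes -0.40, SE 0.33, and -0.29, SE 0.34). Peak 10, at chr16:33833920-33834196, was weak, with 1.72, 4.23 and 2.14 CPM in naive organoids and 4.85, 5.29 and 5.22 CPM in the lines. It was the sole peak of the window with a positive fold change (log2 fold change 0.78, SE 0.65, not called). Its groups did not overlap, with the lines higher, an order found at 15.5% of all tested peaks.

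No peak lay in the first 68.9 kb of the window, so nothing was measured there. The nearest peak below the window was 2.49 kb outside it, at chr16:33667217-33667508, with 2.26 ± 1.0 CPM in naive organoids and 3.997 ± 2.29 CPM in the lines (SD, n = 3 each), too weak to be tested. The nearest above it was 32.1 kb outside, at chr16:33872146-33872588, with 3.32 ± 0.174 and 4.68 ± 3.83 CPM, and was not tested either. Within 1 Mb on both sides 51 other peaks were tested, with a median log2 fold change of 0.10. Of these, 8 were called higher and 2 lower, beside 8.00% and 6.40% of all tested peaks. Whether these peaks differ from those of the window was not tested.

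Summed over its 11 peaks, the Heg1 and Muc13 window held 439, 512 and 519 CPM in naive replicates 1, 2 and 3, and 202, 197 and 258 CPM in primary tumour replicates 1, 2 and 3. The groups did not overlap, and the ratio of the means was 2.24 in favour of naive organoids. The lines held 39.7% of the naive sum at the 7 called peaks and 78.8% at the other 4, an order that the split by call fixes. Among the 7 called peaks primary tumour replicate 3 was the highest line at 7, replicate 2 the lowest at 4 and replicate 1 the lowest at 3. Log2 values of the lines were also taken relative to the naive mean. Over the 1355 tested peaks of chromosome 16 their medians were 0.17, 0.06 and 0.08 in primary tumour replicates 1, 2 and 3. Over the 249 tested peaks of the surrounding 10 Mb, the window included, the medians were 0.12, -0.036 and -0.0037. Of these 249 peaks 9.64% were called higher and 10.4% lower, beside 8.00% and 6.40% of all tested peaks. Whether the window differs from its surroundings was not tested.

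**Figure D2:**
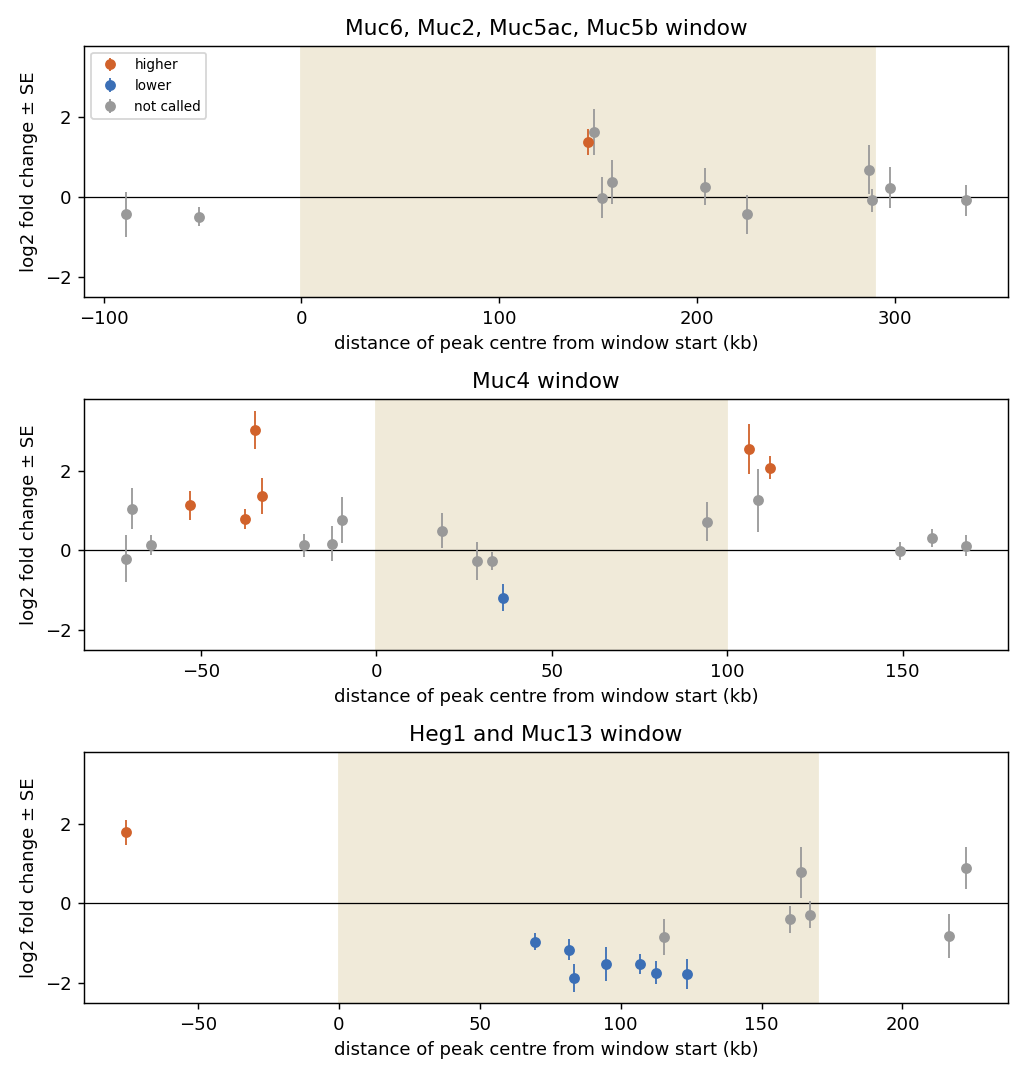
Log2 fold change (primary tumour lines minus naive organoids) with its standard error for tested peaks in the 3 windows (shaded) and up to 100 kb on either side, against the distance in kb of the peak centre from the window start. The 7 peaks called lower in the Heg1 and Muc13 window span 55.5 kb, with 1 uncalled peak between them. The Muc4 window has 1 peak called lower and the Muc6 to Muc5b window 1 called higher.

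In the Muc4 window the strongest peak was not called and a close neighbour was called lower in the tumour lines. Whether these peaks differ from each other was not tested. Peak 4, at chr16:32742445-32743347, held 47.2, 58.8 and 50.4 CPM in naive replicates 1, 2 and 3, and 51.3, 39.2 and 39.4 CPM in primary tumour replicates 1, 2 and 3. The groups overlapped through primary tumour replicate 1, and the peak was not called (log2 fold change -0.27, SE 0.23, edgeR adjusted p = 0.504). Peak 5, at chr16:32745790-32746358 and 2.44 kb further on, held 32.6, 38.2 and 28.6 CPM in naive organoids and 21.4, 11.1 and 9.96 CPM in the lines. Every line lay below every naive library, with 14.2 ± 6.29 against 33.1 ± 4.82 CPM (SD, n = 3 each; log2 fold change -1.20, SE 0.33, edgeR adjusted p = 0.0161). The call was lost in 3 of the 6 fits that left out 1 library. The log2 fold change was -1.07 without naive replicate 2 (edgeR adjusted p = 0.129), -1.05 without primary tumour replicate 2 (edgeR adjusted p = 0.0554) and -0.99 without primary tumour replicate 3 (edgeR adjusted p = 0.0789). It moved most without primary tumour replicate 1, to -1.66 (edgeR adjusted p = 0.000976), where the call remained.

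The Muc4 window thus had 1 of 5 tested peaks called lower and none higher, beside 6.40% and 8.00% of all tested peaks. Its median log2 fold change was -0.27, and that over all tested peaks -0.01. Peak 2, at chr16:32728400-32729282, differed between the lines, with 22.2 CPM in primary tumour replicate 1 and 8.996 and 10.4 CPM in replicates 2 and 3, against 12.01, 9.37 and 9.40 CPM in naive organoids (log2 fold change 0.49, edgeR adjusted p = 0.514). Without primary tumour replicate 1 its log2 fold change was -0.04. Peak 6, at chr16:32803432-32805312, differed instead between naive libraries, with 19.7 CPM in replicate 1 and 5.14 and 6.41 CPM in replicates 2 and 3, against 10.3, 19.6 and 17.1 CPM in the lines. Without naive replicate 1 its log2 fold change was 1.42, against 0.72 with all libraries, and it was not called in either case. A single library therefore set the direction or size of both.

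Of the remaining pair, peak 3 was not called and peak 1 was too weak to be tested. Peak 3, at chr16:32738376-32739366, had overlapping groups with 10.6 ± 4.50 CPM in naive organoids and 8.59 ± 2.79 CPM in the lines (SD, n = 3 each). Peak 1, at chr16:32713381-32713966, failed the filter, with 2, 4 and 4 reads in naive organoids and 12, 5 and 4 reads in the lines.

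Peaks called higher lay just outside the Muc4 window. The nearest above it, 5.86 kb outside at chr16:32815862-32816755, held 5.15, 2.94 and 0 CPM in naive organoids and 16.5, 15.9 and 10.9 CPM in the lines (log2 fold change 2.54, SE 0.64, edgeR adjusted p = 0.00876). The 0 stands for 0 reads in naive replicate 3, where 3 reads, the limit that a count of 0 allows, would be 1.28 CPM. The nearest peak below it, 9.58 kb outside at chr16:32699899-32700418, held 3.98 ± 0.920 CPM in naive organoids and 6.58 ± 0.465 CPM in the lines (SD, n = 3 each) and was not called. Within 100 kb on both sides 16 peaks were tested, 6 of them called higher and none lower, beside 8.00% and 6.40% of all tested peaks. Whether these flanks differ from the window, with its 5 tested peaks, was not tested. Summed over its 6 peaks, the window held 122, 120 and 112 CPM in naive organoids and 120, 87.3 and 87.3 CPM in the lines. Primary tumour replicate 1 was level with the naive libraries, and the other lines were lower.

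At the gel-forming mucin genes of chromosome 7, 1 peak was more accessible in the tumour lines and the others were not called. The window of 290 kb held 8 peaks, and its first 144 kb held none. The whole gap without a peak ran for 195 kb, from 148749218 to 148944143, longer than 94.0% of all gaps between neighbouring peaks, whose median was 15.2 kb. Of the 8 tested peaks 1 was called higher and none lower, and 5 of the 8 had positive fold changes. The share of 12.5% called was near the 14.4% called in either direction among all tested peaks.

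Peak 1, at chr7:148944143-148944990, was the one called. It held 12.9, 11.6 and 14.1 CPM in naive replicates 1, 2 and 3, and 26.8, 38.1 and 35.6 CPM in primary tumour replicates 1, 2 and 3. The lowest line lay well above the highest naive library, and the means were 33.5 ± 5.93 and 12.8 ± 1.26 CPM (SD, n = 3 each), a rise of 2.61-fold (log2 fold change 1.38, SE 0.32, edgeR adjusted p = 0.00414). Its call remained in all 14 alternative fits, with adjusted p from edgeR or DESeq2 between 0.00109 and 0.0421. Peak 2, at chr7:148947778-148948164 and 2.79 kb further on, was weaker, with 4.29, 1.65 and 4.27 CPM in naive organoids and 7.42, 9.53 and 12.3 CPM in the lines. The groups did not overlap, but the peak was not called (log2 fold change 1.62, SE 0.58, edgeR adjusted p = 0.0604). Its naive values rest on 5, 9 and 10 reads. Without primary tumour replicate 1 it was called (edgeR adjusted p = 0.0400).

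Peaks 3 and 4, from 148951213 to 148957641, lay within 10 kb of peak 2 and were not called. Peak 3, at chr7:148951213-148952523, held 18.0, 5.33 and 10.7 CPM in naive organoids and 7.13, 7.41 and 17.1 CPM in the lines (log2 fold change -0.02, SE 0.51). Peak 4, at chr7:148956485-148957641, held 11.2, 3.12 and 8.97 CPM in naive organoids and 8.27, 4.76 and 15.2 CPM in the lines (log2 fold change 0.39, SE 0.56). Both were low in naive replicate 2 and high in primary tumour replicate 3, and the groups overlapped.

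Of the other peaks, peak 8, at chr7:149087722-149088647 and the last of the window, was the strongest, with 34.3, 27.7 and 21.8 CPM in naive organoids and 27.7, 24.9 and 25.6 CPM in the lines (log2 fold change -0.08, SE 0.29, edgeR adjusted p = 0.904). Peak 6, at chr7:149024641-149025083, had 11.0 ± 3.12 CPM in naive organoids and 8.10 ± 3.89 CPM in the lines, and peak 5, at chr7:149003345-149004580, had 9.50 ± 2.82 and 11.2 ± 4.40 CPM (SD, n = 3 each). Neither was called. Peak 7, at chr7:149086381-149086773, was weak, with 1.72, 3.86 and 3.84 CPM in naive organoids and 5.70, 5.29 and 5.22 CPM in the lines, and was not called although its groups did not overlap. Groups did not overlap, with the lines higher, at 3 of the 8 peaks, and 15.5% of all tested peaks had this order.

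The nearest peak below the window was 50.8 kb outside it, at chr7:148747683-148749218, with 50.0 ± 6.99 CPM in naive organoids and 35.1 ± 2.24 CPM in the lines (SD, n = 3 each), and was not called (edgeR adjusted p = 0.182). The nearest above it, 6.99 kb outside at chr7:149096989-149097974, had 8.91 ± 3.75 and 10.1 ± 6.03 CPM and was not called either. Summed over the 8 peaks the window held 108, 68.5 and 84.1 CPM in naive organoids and 93.0, 114 and 135 CPM in the lines. The groups overlapped, with naive replicate 1 above primary tumour replicate 1.

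**Figure D3:**
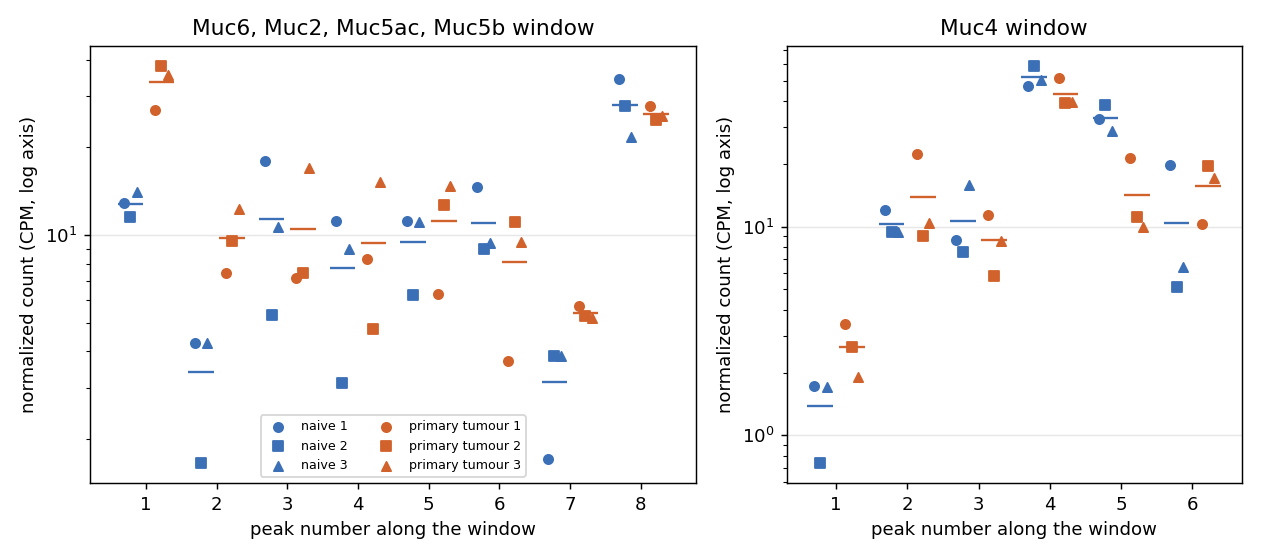
Normalized count (CPM, log axis) of the 8 peaks of the Muc6, Muc2, Muc5ac and Muc5b window and the 6 peaks of the Muc4 window in each library. Points are libraries and short lines are group means of 3 libraries. Peak 1 on the left is higher in every primary tumour line, and peak 5 on the right is lower in every line.

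Peaks lay at 6.47 per 100 kb in the Heg1 and Muc13 window, 6 in the Muc4 window and 2.76 in the Muc6 to Muc5b window, and at 1.67 per 100 kb between the first and last peaks of all chromosomes. The typical (median) peak had a mean over libraries of 21.0 CPM in the first, 12.6 CPM in the second and 9.96 CPM in the third, and 12.8 CPM over all peaks. Median log2 fold changes of tested peaks were -1.16, -0.27 and 0.32. Whether the windows differ from one another was not tested. In width the 25 peaks ranged from 276 to 2009 bp with a median of 882 bp, against 746 bp over all peaks.

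**Figure D4:**
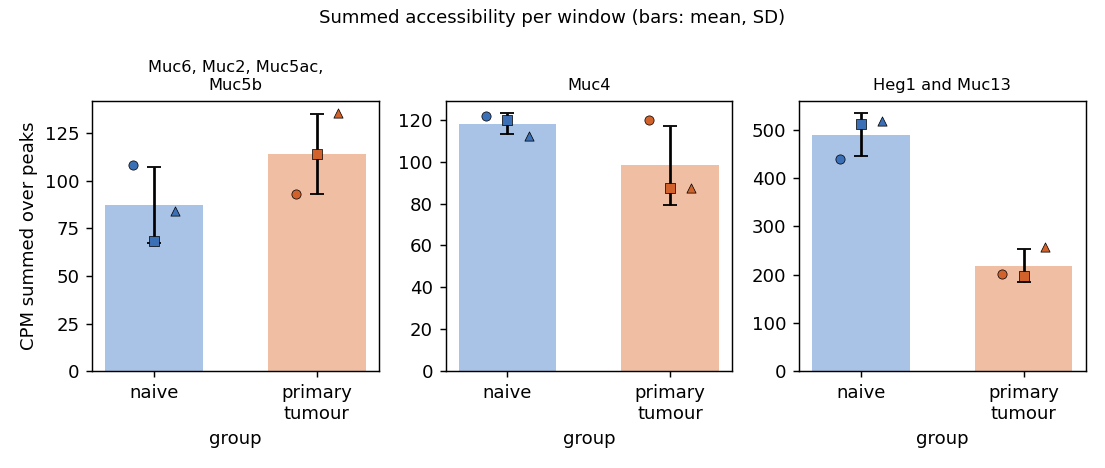
CPM summed over all peaks of each window. Bars are means of 3 libraries, error bars are SD and points are libraries (circle, square and triangle for replicates 1, 2 and 3). The naive and primary tumour libraries are apart in the Heg1 and Muc13 window, and overlap in the other windows.

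The profile of the Heg1 and Muc13 sum over the 6 libraries was most like that of peaks at chr2:181295913-181296185, chr13:30176926-30177765 and chr12:41808389-41808873, with Pearson's r of log2(CPM + 1) of 0.998, 0.997 and 0.996 among tested peaks on other chromosomes. Pearson's r takes no account of the size of a change, and these peaks had log2 fold changes of -4.84, -0.32 and -1.70. At the first of them the lines had a mean of only 0.316 CPM. The Muc4 sum was most like chr12:21150412-21151276, with r of 0.997, and the Muc6 to Muc5b sum most like chr1:140141892-140142469, with r of 0.998. An r over 0.95 with the Heg1 and Muc13 sum was found at 501 of 32666 peaks. The Muc4 sum had 165 such peaks and the Muc6 to Muc5b sum 151. With 6 libraries in 2 groups such values are a description of these libraries alone.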

How the data were processed

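The authors deposited 1 table of raw read counts per peak for 6 ATAC-seq libraries, with 1 peak set for all samples per the file's row names, which also hold the authors' score of each peak. The submitters' processing notes name Bowtie, Picard, SAMtools, MACS2, bedtools and the build mm9. How duplicates and the transposase offset were handled is not known from these notes. Coordinates are printed as deposited. Libraries were grouped by sample title.

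The test used edgeR 4.0.16 (R 4.3.3): filterByExpr, TMM (factors 0.922 to 1.05) and the robust quasi-likelihood F test of group, 2-sided, with Benjamini-Hochberg adjustment over 36179 peaks, tested on simulated data. SE is the fold change over the root of F. Alternatives were total-count and DESeq2 scaling, DESeq2 1.42.0, no filter, at least 20 counts in at least 3 libraries, a replicate block, abundance-trended (loess span 0.3) or 10 Mb offsets and each library left out. Named peaks were the 3 strongest, the called, the most variable and the edge peaks of each window, and others are given for completeness. Windows, members and lists were chosen with earlier results of these data known. Lists of goblet, glycosylation and cell type marker genes were not used, since peaks could not be tied to genes; the labelled cell type was therefore not checked.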

Additional observations from a re-analysis of the deposited data

How the results depend on the processing

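Results were recomputed under 14 alternative fits, 6 of which left out 1 library. In the Heg1 and Muc13 window all 8 other alternatives called 7 peaks lower, and leaving out 1 library gave 5 to 7. These fits reuse the libraries whose differences helped to select that window, so the counts describe the settings and support nothing further. No called peak of the 25 changed sign. In the Muc4 window leaving out 1 library gave 0 to 1 peaks lower, and in the Muc6 to Muc5b window 1 to 2 peaks higher. Over all peaks it gave 2215 to 5440 called, 1366 to 3033 higher and 849 to 2407 lower, against 5210, 2893 and 2317. The lowest 3 values came without naive replicate 2, the deepest library, and the cause was not tested. The log2 ratios of summed signal kept their sign throughout.

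Of the uncalled peaks 6 changed sign, with log2 fold changes between -0.28 and 0.49 in the fit of all libraries, and the cause was not tested. On chromosome 7 the log2 fold change at 148951213 was 0.029 under total-count scaling and 0.016 under the stricter count filter. Leaving out 1 library gave -0.53 to 0.42 there, -0.10 to 0.71 at 148956485, -0.015 to 0.60 at 149003345 and -0.24 to 0.054 at 149087722. On chromosome 16 it gave -0.042 to 0.72 at 32728400 and -0.55 to 0.12 at 32738376.

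With a replicate block 3539 peaks were called, 1972 higher and 1567 lower, and no call in the 3 windows changed. Same-numbered libraries had correlations of deviations of -0.24, -0.11 and 0.01, so the numbers were not taken to pair them. Peaks of a few reads per library, such as the first of the Muc4 window, are too shallow to compare.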
